A study of Macaca mulatta with 30 samples.

Results

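The comparison described here sets 7 heavy drinkers (HD) against 7 binge drinkers (BD), 14 of the 30 rhesus macaques whose cortical area 32 was profiled by RNA sequencing. Animals entered each side by the drinking category in their sample labels. All animals were male Macaca mulatta, individually housed and without earlier experiments; each was introduced over about 90 days to a 4% (w/v) ethanol solution, which afterwards was on offer for 22 hours a day, beside water, for over 12 months. An HD animal took 3 g/kg ethanol or more on at least 20% of days. A BD animal took 2 g/kg or more on at least 55% of days and reached a blood ethanol of 80 mg/dl at least once a year. The other animals of the series were 10 low drinkers (LD), which met neither definition, and 6 very heavy drinkers (VHD). No ethanol-naive animal is among the groups, so both sides of the comparison were long-term drinkers, and necropsy fell at the hour at which drinking usually began. The intake of each animal was not analysed here.

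The animals came from 4 cohorts, and the categories were spread unevenly over them. Cohort 4 gave 1 HD and 4 BD animals, cohort 5 gave 3 and 1, cohort 7a gave 2 and 1, and cohort 7b gave 1 and 1. Mean age at the end of drinking was 9.98 years in cohort 4 and 7.15, 5.7 and 7.18 years in cohorts 5, 7a and 7b. Every difference below is therefore HD minus BD with cohort as a term, on the scale of log2(normalized reads + 1), fitted with limma and given ± SE. Each library is 1 animal, so p-values measure the spread between animals.

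Area 32 is a medial prefrontal region beside the anterior cingulate cortex, and prefrontal areas take part in the control of reward seeking. A dissected block of cortex holds neurons and glia and also the vessels that enter it and, where the surface is included, the leptomeninges. Arterioles are wrapped in contractile smooth muscle, capillaries in pericytes, and leptomeningeal and perivascular fibroblasts make fibrillar collagens. Below the cells lies a basement membrane of laminins, nidogens and collagen IV. In such bulk tissue, fewer cells of a type and less RNA per cell cannot be told apart.

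The libraries held 5.51 to 12.9 M (where M stands for 10 to the power of 6) assigned reads in HD (median 10.7) and 4.94 to 13.99 M in BD (median 6.15), with means 0.967 M apart (exact permutation test, two-sided, p = 0.608). Neuronal and glial markers were present in every group, with mean log2 levels of the astrocyte list between 11.55 and 11.98. Of 11 blood cell genes listed, 8 were in the table. None of these reached 10 normalized reads in 6 libraries, and HBM and CA1 were listed at 0 in all 14. The others of the list had no row, so the blood content of the tissue cannot be read from them. In a principal component analysis of these 14 libraries, the leading component carried 18.2% of the variance. It did not follow drinking category alone: the 5 libraries that the labels number from 1 to 8, 4 of them HD and 1 BD, all lay at its negative end. BD replicate 7 (number 27) and HD replicate 7 (number 29) were also below 0 on it, at -11.4 and -8.1. The libraries numbered 9 to 25 were above 0. What the numbers stand for is not given in the labels.

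No gene passed the test between heavy and binge drinkers once adjusted over 12690 genes: 0 genes (0%) had an adjusted p under 0.05, and the smallest adjusted p was 0.823 (limma, Benjamini-Hochberg). At an unadjusted p under 0.05 there were 731 genes (5.76%), of which 324 (2.55%) were higher and 407 (3.21%) lower in HD. The edgeR and DESeq2 tests on recovered whole reads also gave 0 adjusted calls, with 736 and 726 genes unadjusted. The median SE was 0.13, and the central range of differences, from the 5th to the 95th percentile, ran from -0.35 to 0.24. Everything named below is accordingly a description of values and not a call.

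The 10 genes with the smallest p that were lower in HD were TLN1, WNK4, CD74, SYCE1, ITGB4, TNFRSF1A, IGF2, DNAJB13, CTDSP1 and PTGDS. TLN1, whose product talin links integrins to the actin skeleton, ran from 10.47 to 10.82 in HD (median 10.60) and from 10.81 to 11.08 in BD (median 10.92). Only the highest HD and the lowest BD animal crossed over, and the fitted difference was -0.35 ± 0.08 (unadjusted p = 0.000316). In 53 of its 57 tested exons the difference was below 0. ITGB4, the integrin beta subunit that binds laminin, ran from 9.02 to 9.66 in HD (median 9.31) and from 9.56 to 10.12 in BD (median 9.79). Its difference was -0.46 ± 0.12, and all 39 of its exons pointed the same way. In all 15366 genes not at 0 throughout, the gene value equalled the sum of its exons within 0.1% after 1 scaling per library, so such counts show only how evenly a difference is spread along the transcript.

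CD74, the invariant chain that escorts MHC class II molecules in microglia and macrophages, ran from 7.57 to 8.75 in HD (median 7.91) and from 8.24 to 9.17 in BD (median 8.58). Its difference was -0.78 ± 0.18 (unadjusted p = 0.000473), with 6 of the 7 HD animals below every BD animal. TNFRSF1A, the main receptor for tumour necrosis factor, had HD values of 6.66 to 7.27 (median 6.93) against 7.14 to 7.81 (median 7.41), a difference of -0.56 ± 0.14. The regulatory kinase gene WNK4 differed by -0.91 ± 0.21, and CTDSP1, a phosphatase that restrains neuronal gene transcription, by -0.48 ± 0.13. DNAJB13, a chaperone gene of cilia and flagella, differed by -0.57 ± 0.16. SYCE1, a meiotic gene with few reads here, ran from 1.31 to 4.39 in HD and from 2.302 to 5.17 in BD, with a difference of -2.34 ± 0.56. The remaining pair of these 10 genes, IGF2 and PTGDS, also stand in the fibroblast list described further on. The genes were chosen by p in a fit with cohort as a term, so that all 10 had the same sign in each of the 4 cohorts describes the choice.

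Genes with the smallest p that were higher in HD were TRIP13, PTGER3, GFM2, DDX4, BBS4, UBE3A, HECTD2, PHOSPHO2, MSRA and MORF4L2. TRIP13, an ATPase of the spindle checkpoint and of meiosis, ran from 5.18 to 5.84 in HD (median 5.45) and from 4.22 to 5.13 in BD (median 4.64). The groups did not overlap, and the difference was 0.98 ± 0.21 (unadjusted p = 0.00023), or 1.97-fold. PTGER3, the EP3 receptor for prostaglandin E2, ran from 7.27 to 7.77 in HD (median 7.42) and from 5.86 to 7.69 in BD (median 6.94), a difference of 0.77 ± 0.20 in which 1 of its 2 exons was higher. Without BD replicate 6, the lowest animal, the difference was 0.49. DDX4, a germline helicase gene, was low in both groups, with HD at 3.92 to 5.19 and BD at 2.67 to 4.41.

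UBE3A, the ubiquitin ligase of Angelman syndrome, had values of 10.98 to 11.29 in HD (median 11.16) and 10.80 to 11.10 in BD (median 10.90), a difference of 0.24 ± 0.07 seen in 12 of 13 exons. A related ligase gene, HECTD2, differed by 0.28 ± 0.08 and was higher in 19 of 21 exons. BBS4, a subunit of the complex that carries membrane proteins to the primary cilium, ran from 8.35 to 8.83 in HD (median 8.49) and from 7.90 to 8.46 in BD (median 8.18). All 14 of its exons were higher, with a gene difference of 0.39 ± 0.11. For GFM2, which recycles mitochondrial ribosomes, the difference was 0.37 ± 0.10 and 20 of 21 exons were higher. MSRA, which repairs oxidized methionine, differed by 0.34 ± 0.10, MORF4L2, a chromatin complex subunit, by 0.27 ± 0.08, and the phosphatase gene PHOSPHO2 by 0.53 ± 0.16. The sign was shared by the 4 cohorts in all 10 genes, which again follows their choice by p (7.49% of all tested genes were higher in all 4 cohorts).

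**Figure D1:**
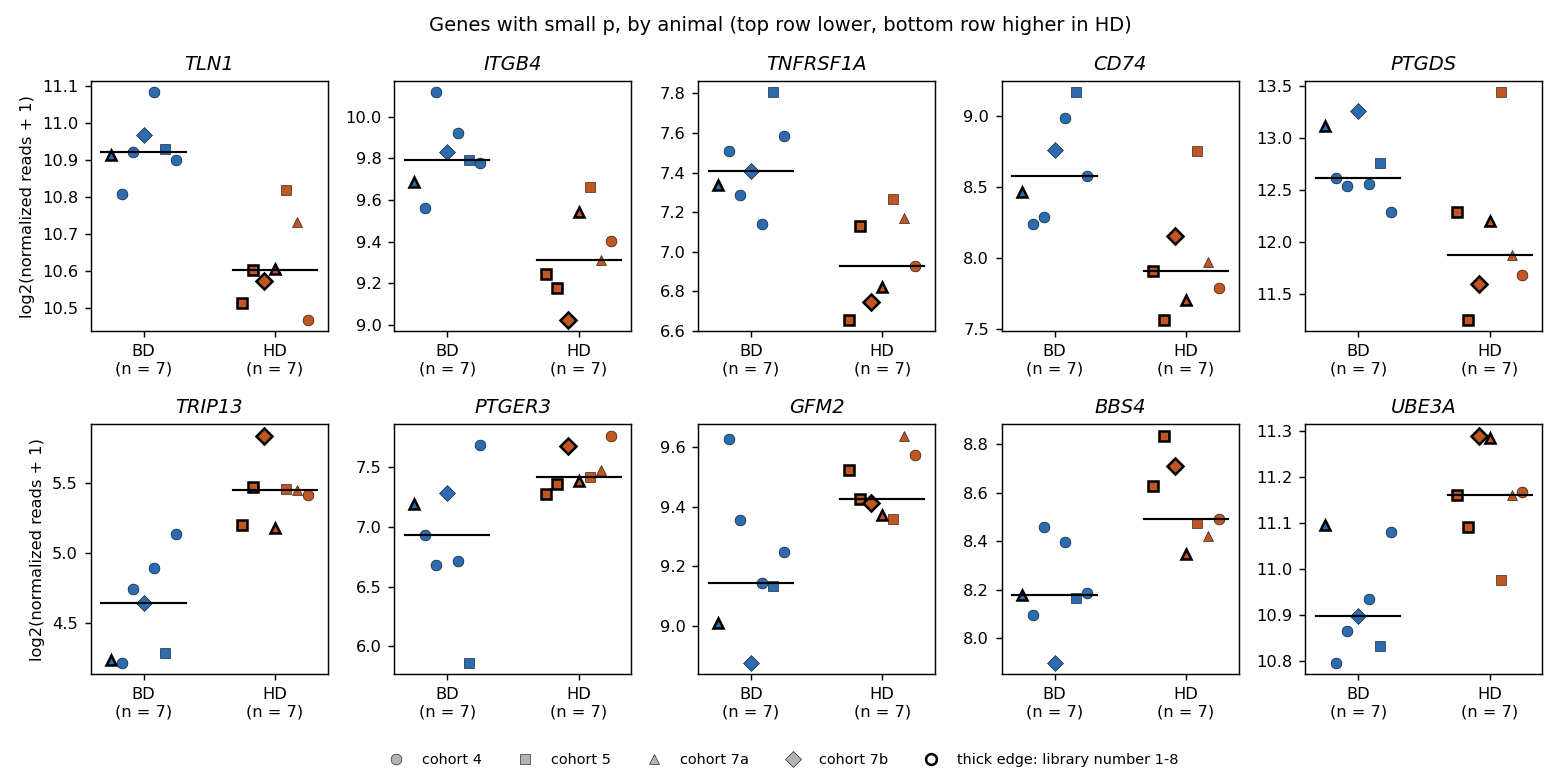
Values of 10 genes with small p in each BD and HD animal (n = 7 each), as log2(normalized reads + 1); bars are medians, symbols give the cohort and thick edges mark libraries numbered 1 to 8. Of the genes drawn, TRIP13 alone has groups that do not overlap, and in TLN1 1 HD animal lies just above the lowest BD animal.

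Full separation of the 7 HD from the 7 BD values was found in 12 of the 12690 genes (0.0946%), 8 with HD above (0.063%) and 4 with HD below (0.0315%); apart from TRIP13 they are named because of these values. HD lay above BD in GRPEL2, LAMTOR3, MCM6, PTGR2, RAB23, RAD18, RTN1 and TRIP13. RTN1, a neuronal reticulon of the endoplasmic reticulum and the most highly expressed of them, ran from 13.26 to 13.43 in HD and from 13.00 to 13.22 in BD, a difference of 0.16 ± 0.06. LAMTOR3, a scaffold that brings nutrient signalling to the lysosome, ran from 9.64 to 9.83 against 9.17 to 9.64, with a gap too small to show at this rounding. HD lay below BD in ITGB7, PIGT, RFX2 and ZBTB20. ZBTB20, a transcription factor gene, ran from 8.30 to 8.57 in HD and from 8.58 to 8.85 in BD, a difference of -0.30 ± 0.09.

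Set against all genes, the gene lists that lay farthest from 0 were those of meningeal fibroblasts, of pericytes and smooth muscle, and of basement membrane and elastic fibre. The endothelial list had a median of -0.11. The median difference over the 12690 tested genes was -0.0011, and 50.2% of them were below and 49.8% above 0. Of the 26 lists with a tested member, 17 had a median below 0 and 9 above. The most negative medians were those of meningeal fibroblast and collagen genes (-0.57), pericyte and smooth muscle genes (-0.40) and basement membrane and elastic fibre genes (-0.24); the most positive was that of GABA and glycine receptors (0.12). These lists were chosen with earlier results of these data known, and their medians are descriptions.

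**Figure D2:**
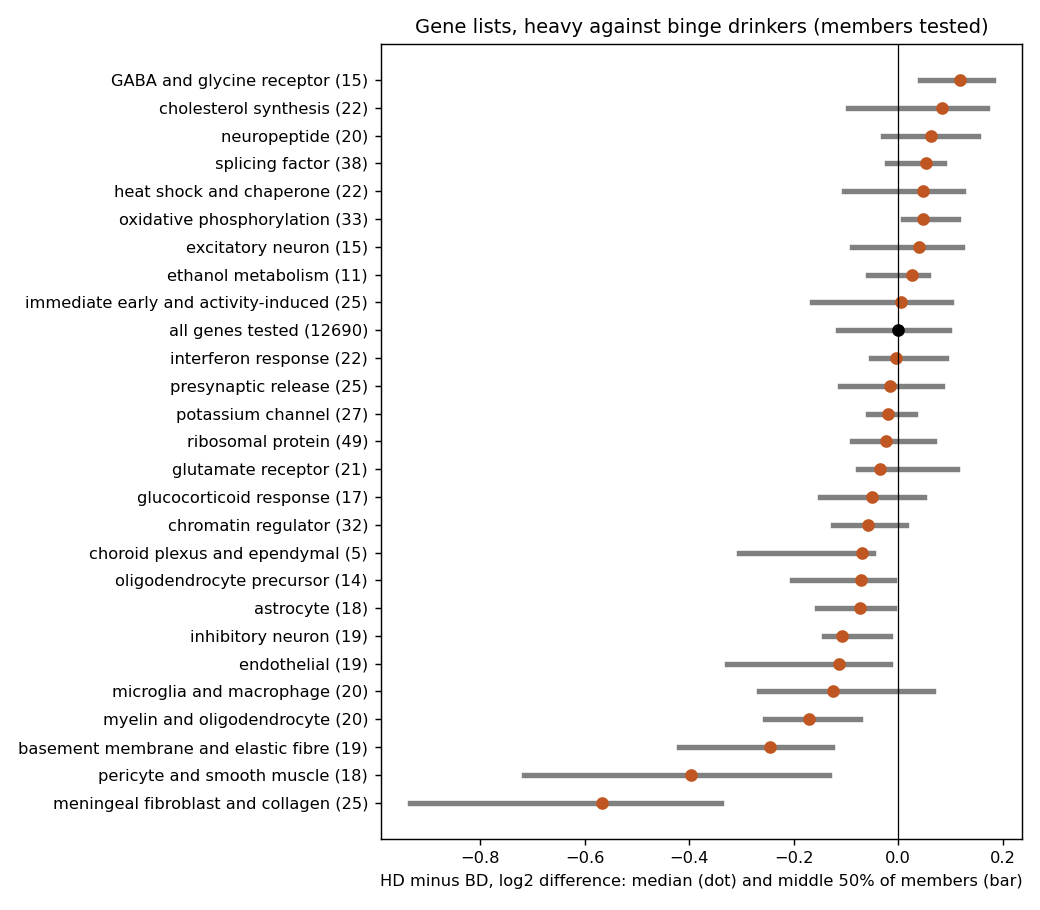
HD minus BD log2 differences for 26 gene lists and for all tested genes; dots are medians over tested members (their number in parentheses), grey bars the middle 50% of members. The fibroblast, pericyte and basement membrane lists lie lowest, with medians of -0.57, -0.40 and -0.24, while most other lists sit close to 0.

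Fibroblast and collagen genes were lower in most heavy drinkers. Of 28 genes in the list 25 were tested, 23 were below 0, 13 were lower at an unadjusted p under 0.05 (background 3.21%) and none was higher. In 19 of them HD was lower in all 4 cohorts (background 7.4%). The mean log2 level of the list ran from 6.94 to 8.65 in HD (median 7.48) and from 7.51 to 8.31 in BD (median 8.08), so the groups overlapped. The HD animal that reached 8.65, replicate 5 from cohort 5, was the highest of all 14; the next HD animal stood at 7.52, close to the lowest BD animal. In summed normalized reads the list took 6927 to 24888 in HD (median 10114) and 10863 to 20509 in BD (median 14368). LD and VHD animals had medians of 8.08 and 8.09, near that of BD, without a cohort term. They ran from 7.41 to 8.63 and from 7.30 to 8.43, so both overlapped HD. LD animals came from cohorts 4, 7a and 7b, and VHD animals from cohorts 5 and 7a.

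The fibrillar collagen genes of the list differed in size of difference: COL1A1, COL1A2 and COL3A1 had estimates near or beyond -1, whereas COL5A1 was at -0.22 ± 0.17. COL1A1 ran from 5.06 to 8.61 in HD (median 7.39) and from 6.70 to 9.53 in BD (median 7.69), a difference of -1.60 ± 0.50 (unadjusted p = 0.00497), and all 21 exons were below 0. Its difference was -1.54, -0.07, -1.26 and -4.46 within cohorts 4, 5, 7a and 7b, and -0.96 without HD replicate 3 or BD replicate 4, the only animals of cohort 7b. COL1A2, which pairs with it in type I collagen, ran from 7.68 to 11.06 in HD (median 9.23) and from 8.96 to 10.62 in BD (median 9.86), a difference of -1.11 ± 0.41 that was -0.69 without either animal of cohort 7b. COL3A1, of type III collagen, ran from 7.14 to 10.02 against 7.82 to 9.39, a difference of -0.95 ± 0.35. In these 3 collagen genes the HD group spread more widely than the BD group, with the lowest animals and, in COL1A2 and COL3A1, also the highest animal in HD.

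Genes for secreted factors and solute carriers of the leptomeninges were lower in HD as well. IGF2, a growth factor made by meningeal and vascular cells, ran from 6.90 to 9.005 in HD (median 7.36) and from 7.71 to 9.43 in BD (median 8.86), a difference of -1.22 ± 0.33 (unadjusted p = 0.00193). PTGDS, the prostaglandin D synthase that the leptomeninges release into cerebrospinal fluid, ran from 11.25 to 13.44 in HD (median 11.87) and from 12.29 to 13.26 in BD (median 12.62). Its difference was -0.93 ± 0.26, and it was lower in all 6 exons. Among the carriers SLC13A4, for sulfate, differed by -1.27 ± 0.43 and SLC6A13, for GABA and taurine, by -0.88 ± 0.29. Both list members above 0, ALDH1A1 at 0.06 ± 0.08 and DPT at 0.03 ± 0.49, were within 1 SE of it.

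Without HD replicate 5, PTGDS passed the adjusted threshold as the only gene of that fit (difference -1.09, adjusted p = 0.0236, limma), and 19 list members were lower at an unadjusted p under 0.05. That number was 6 without HD replicate 3 or BD replicate 4, and 0 without the 5 libraries numbered 1 to 8. Over all tested genes, in either direction, the number at that p moved too. It was 731 in the reported fit, 778 without HD replicate 5 and 466 without HD replicate 3. Without BD replicate 4 it was 463, and without numbers 1 to 8 it was 708. When all of cohort 5 was left out, 7 genes passed the adjusted threshold: CFB, OGN, PTGDS, SIRPB1, SLC13A3, SLC13A4 and VIM. They are named because of that fit. Of these OGN, PTGDS and SLC13A4 belong to the list. CFB encodes complement factor B and VIM the intermediate filament vimentin of mesenchymal cells. SIRPB1, a receptor gene of myeloid cells, ran from 0 to 5.29 in HD (median 0) and from 0 to 6.00 in BD (median 5.43). In cohort 5, which that fit leaves out, its difference was 2.44, against -4.73, -5.65 and -5.04 in cohorts 4, 7a and 7b. VIM was at 0.02 in cohort 5, whereas CFB, OGN, PTGDS, SLC13A3 and SLC13A4 were lower in HD there too.

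Several genes of the contractile apparatus of smooth muscle were also lower in HD. Of the 20 genes in the pericyte and smooth muscle list 18 were tested, 16 were below 0, 8 were lower at an unadjusted p under 0.05 (background 3.21%) and none was higher. The 8 became 1 without BD replicate 1, 3 without BD replicate 4 or HD replicate 3, 4 without HD replicate 7 and 5 without BD replicate 6 or HD replicates 1, 2 or 6. Over all tested genes, in either direction, the number at that p was 731 in the reported fit. It was 1490, 463 and 434 without BD replicates 1, 4 and 6. Without HD replicates 1, 2, 3, 6 and 7 it was 561, 656, 466, 1180 and 406. The mean log2 level ran from 6.29 to 7.32 in HD (median 6.57) and from 6.72 to 7.77 in BD (median 6.98). Outside HD replicate 5, which had the 7.32, every HD animal lay below every BD animal. LD animals had a median of 6.84 (6.34 to 7.57) and VHD animals of 6.72 (6.31 to 6.98), without a cohort term. Both overlapped HD, and the VHD median lay nearer that of HD than that of BD.

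The 8 members with small p were MYH11, MYL9, TPM2, TAGLN, NOTCH3, SMTN, ACTA2 and CNN1. MYH11, the smooth muscle myosin heavy chain, ran from 6.56 to 9.12 in HD (median 7.15) and from 7.16 to 10.79 in BD (median 8.57), a difference of -1.50 ± 0.52 (unadjusted p = 0.00957). TAGLN, an actin-binding protein of smooth muscle, ran from 7.05 to 8.66 in HD (median 7.28) and from 7.62 to 9.47 in BD (median 7.89), a difference of -0.72 ± 0.30. ACTA2, smooth muscle actin, differed by -0.84 ± 0.37, and CNN1, calponin, by -1.32 ± 0.61. NOTCH3, the receptor that maintains arterial smooth muscle, differed by -0.33 ± 0.14. The other 10 members did not reach that p. Among them were the contractile or cytoskeletal genes DES (-0.72 ± 0.41), MYLK (-0.15 ± 0.16) and CALD1 (0.01 ± 0.17). The rest, genes known from pericytes, were ANPEP (-0.46 ± 0.37), NDUFA4L2 (-0.21 ± 0.39), ABCC9 (-0.18 ± 0.13), PDGFRB (-0.13 ± 0.12), HIGD1B (-0.10 ± 0.27), KCNJ8 (-0.07 ± 0.33) and RGS5 (0.01 ± 0.09), several with wide errors. Whether contractile and pericyte members differ from each other was not tested.

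Basement membrane and elastic fibre genes gave smaller differences. Of 26 genes 19 were tested, 18 were below 0 and 6 were lower at an unadjusted p under 0.05 (background 3.21%). NID1, a nidogen that bridges laminin and collagen IV, ran from 7.93 to 9.19 in HD (median 8.21) and from 8.43 to 8.998 in BD (median 8.75), a difference of -0.54 ± 0.16. LAMB2, a laminin chain of vessels and of the glial limiting membrane, ran from 8.64 to 9.72 against 9.27 to 9.64, a difference of -0.50 ± 0.16. The elastic fibre gene MFAP4 differed by -0.92 ± 0.30. Both capillary collagen IV genes had estimates nearer 0, COL4A1 at -0.10 ± 0.11 and COL4A2 at -0.13 ± 0.20.

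**Figure D3:**
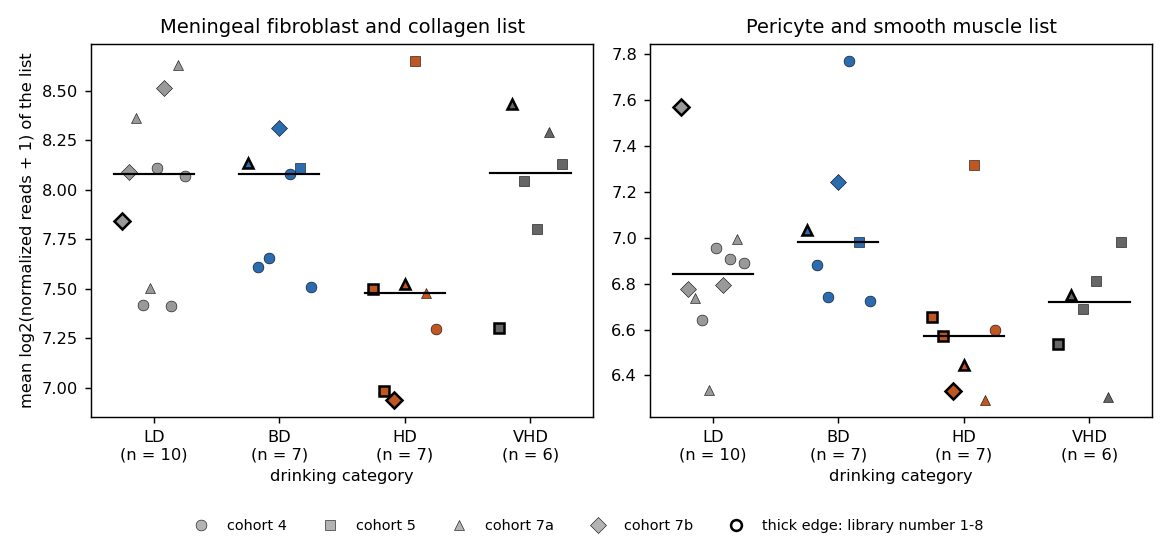
Mean log2(normalized reads + 1) of the fibroblast list (left) and the pericyte list (right) in each animal of the 4 drinking categories (LD n = 10, BD n = 7, HD n = 7, VHD n = 6); bars are medians, symbols give the cohort and thick edges mark libraries numbered 1 to 8. In both panels 6 of the 7 HD animals lie below the BD median, and HD replicate 5 stands apart at 8.65 and 7.32. LD and VHD animals overlap HD in both panels, and in the pericyte panel their lowest animals (6.34 and 6.31) lie near the lowest HD animal (6.29).

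**Figure D4:**
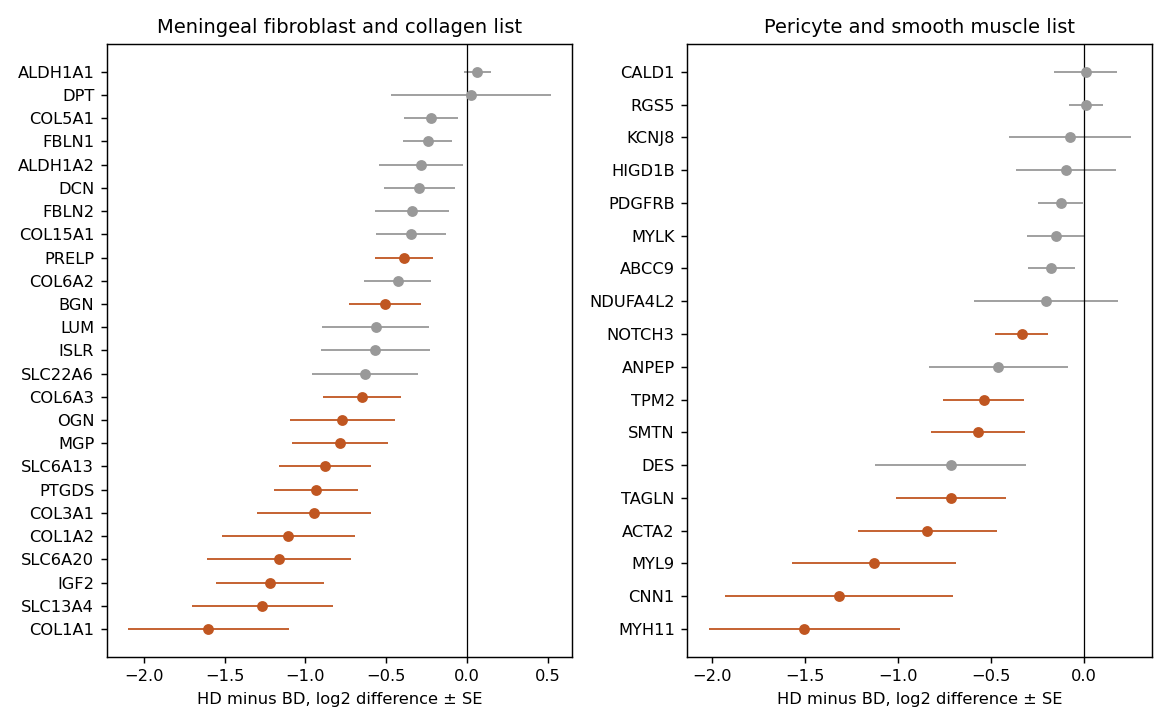
HD minus BD log2 difference ± SE for each tested member of the fibroblast list (25 genes) and the pericyte list (18 genes); orange marks an unadjusted p under 0.05 and grey the others. The fibrillar collagen gene COL1A1 (-1.60) and the smooth muscle gene MYH11 (-1.50) lie lowest, and RGS5 and CALD1 lie at 0.01.

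Within cohorts the direction was shared but the libraries behind it were few. The fibroblast list mean differed by -0.42, -0.40, -0.63 and -1.38 in cohorts 4, 5, 7a and 7b, and the pericyte list mean by -0.43, -0.13, -0.67 and -0.91. Library numbers 1 to 8 were spread unevenly over the groups, and within each group their list levels overlapped those of later numbers. The 4 HD animals numbered 1 to 8 had fibroblast list means of 6.94 to 7.52, and the 3 numbered 9 and above had 7.29, 7.48 and 8.65. The 1 BD animal numbered 1 to 8 stood at 8.13, within the 7.51 to 8.31 of the other 6. Pericyte list means were 6.33 to 6.65 in HD animals numbered 1 to 8 and 6.29 to 7.32 in the later ones. The BD animal numbered 1 to 8 stood at 7.04 there, within the 6.72 to 7.77 of the later ones. Without the 5 libraries numbered 1 to 8 the median difference was -0.02 for the fibroblast list and -0.08 for the pericyte list, and no member of either was at an unadjusted p under 0.05. In that fit cohorts 7a and 7b hold only 1 category each, so it rests on cohort 4, where no library is numbered 1 to 8, and on HD replicate 5 against BD replicate 6 in cohort 5. With a term for numbers 1 to 8 over all 14 libraries the medians were -0.42 and -0.28, with 11 and 3 members. Over all tested genes the number at that p was 602 with this term and 708 without the 5 libraries, against 731 in the reported fit. Whether what the library numbers stand for had a part in these differences was not tested.

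**Figure D5:**
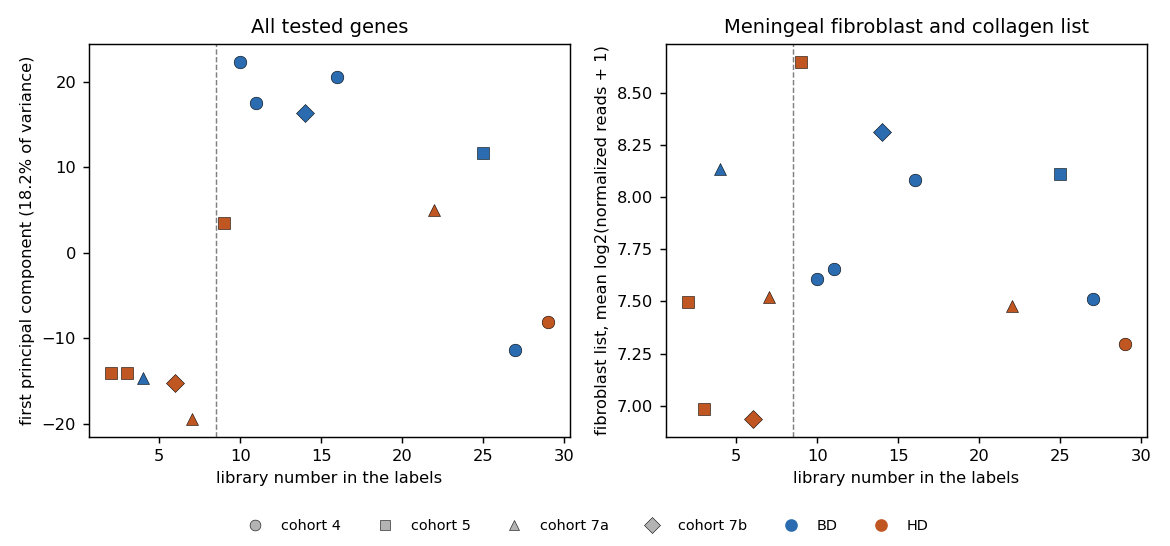
First principal component of all tested genes (left, 18.2% of the variance) and mean log2(normalized reads + 1) of the fibroblast list (right) against library number for the 14 HD and BD animals; colour gives the category, the symbol the cohort, and the dashed line separates numbers 1 to 8. The 5 libraries numbered 1 to 8 lie together on the component, and numbers 27 and 29 are also below 0 there. On the list the 1 BD library among numbers 1 to 8 stands at 8.13, above its 4 HD neighbours.

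Other cell types of the vessel and the brain surface gave fewer or no members. Of 19 endothelial genes 14 were below 0, none was lower and 1 was higher at an unadjusted p under 0.05 (background 2.55%): SLCO1C1, a thyroid hormone transporter of the blood-brain barrier, at 0.26 ± 0.12. CLDN5, the tight junction claudin, differed by -0.32 ± 0.16 (95% interval -0.67 to 0.02). Of the choroid plexus and ependymal list 5 of 12 genes were tested, and CLIC6 was lower at -1.07 ± 0.45. Of 20 microglia and macrophage genes 13 were below 0 and 3 were lower (background 3.21%): the lysosomal marker CD68 (-0.53 ± 0.23), the growth factor receptor CSF1R (-0.32 ± 0.14) and the adaptor TYROBP (-0.54 ± 0.25). CSF1R ran from 8.71 to 9.58 in HD (median 9.06) and from 9.03 to 9.57 in BD (median 9.38), with the groups overlapping. Its difference was -0.20 without HD replicate 7 and -0.48 without BD replicate 1.

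Glial lists lay slightly below 0. Of 18 astrocyte genes 15 were below 0 (background 50.2%) and 2 were lower at an unadjusted p under 0.05 (background 3.21%), among them the growth factor receptor gene FGFR3 (-0.24 ± 0.11). GFAP, the filament that rises in reactive astrocytes, ran from 13.22 to 14.16 in HD and from 13.22 to 14.18 in BD, a difference of -0.07 ± 0.15. Of 20 myelin and oligodendrocyte genes 17 were below 0 and none was at an unadjusted p under 0.05; their median of -0.17 became -0.45 without the cohort term. MBP, a main protein of compact myelin, ran from 8.82 to 9.69 in HD (median 9.26) and from 8.90 to 10.65 in BD (median 9.68), with a cohort-adjusted difference of -0.25 ± 0.19. In the precursor list 11 of 14 were below 0 and 1 was lower (same backgrounds), the proteoglycan gene BCAN at -0.17 ± 0.08.

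Neuronal identity lists gave 1 member at an unadjusted p under 0.05. Of 15 excitatory neuron genes 8 were above and 7 below 0, and none was at an unadjusted p under 0.05. Of 19 inhibitory neuron genes 16 were below 0 (background 50.2%), with a median of -0.11, and 1 was lower (background 3.21%). GAD1, the GABA synthesis enzyme, differed by -0.01 ± 0.09.

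Receptor and release genes, the synaptic targets most discussed for ethanol, held a few members on each side. Of 15 GABA and glycine receptor genes 12 were above 0; GLRA3 (0.21 ± 0.09) and GABRA2 (0.17 ± 0.08) were higher and GABRE (-0.59 ± 0.27) lower at an unadjusted p under 0.05, against backgrounds of 2.55% higher and 3.21% lower that hold for each list of this and the next paragraphs. GLRA3, a glycine receptor subunit, ran from 9.53 to 9.80 in HD (median 9.77) and from 9.23 to 9.62 in BD (median 9.51). Of 21 glutamate receptor genes the metabotropic receptor GRM8 (0.28 ± 0.10) and the AMPA receptor subunit GRIA2 (0.14 ± 0.06) were higher and none lower. Of 25 presynaptic genes the calcium sensor SYT1 (0.18 ± 0.07) and SYT4 (0.23 ± 0.10) were higher and VAMP1 (-0.25 ± 0.11) lower. SYT1 ran from 14.17 to 14.43 in HD (median 14.21) and from 13.99 to 14.26 in BD (median 14.08), and the highest BD animal stood apart from the other 6. None of the 27 potassium channel genes was at an unadjusted p under 0.05.

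Peptides, stress and activity genes showed no member or a single one. None of the 20 neuropeptide genes and none of the 17 glucocorticoid response genes was at an unadjusted p under 0.05. NPY differed by -0.11 ± 0.16, SST by -0.15 ± 0.14, CRH by -0.01 ± 0.16 and PDYN by 0.09 ± 0.11. The glucocorticoid receptor gene NR3C1 differed by 0.01 ± 0.07 and its target FKBP5 by 0.05 ± 0.19. Of 25 activity-induced genes 13 were above 0 and 1 was lower, BTG2 at -0.42 ± 0.19. BDNF, the activity-dependent neurotrophin, ran from 7.36 to 8.14 in HD and from 7.33 to 8.30 in BD, a difference of 0.17 ± 0.15 (95% interval -0.15 to 0.48).

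Metabolic and housekeeping lists held at most 3 members at an unadjusted p under 0.05. Of 11 ethanol metabolism genes the acetate-activating enzyme gene ACSS1 was lower at -0.30 ± 0.13 (-0.14 without HD replicate 7), and ALDH2, which clears acetaldehyde, differed by 0.04 ± 0.10. Of 22 cholesterol synthesis genes 1 was higher and 1 lower, the latter being the transcription factor gene SREBF1 at -0.36 ± 0.16. Of 22 heat shock genes HSPB1 (-0.70 ± 0.22) and HSPA2 (-0.41 ± 0.16) were lower and the endoplasmic reticulum chaperone HSPA5 (0.17 ± 0.07) higher. Of 33 oxidative phosphorylation genes 26 were above 0 (background 49.8%) and 2 were higher at an unadjusted p under 0.05, UQCRB (0.22 ± 0.10) and the low NDUFB3 (0.90 ± 0.41). Of 49 ribosomal protein genes 2 were higher and 1 lower. None of the 22 interferon, 38 splicing factor and 32 chromatin genes was at an unadjusted p under 0.05, though 27 of the splicing factor genes were above 0 and 23 of the chromatin genes below 0. Of 20 genes to be named whatever their value 19 were tested, and COL1A2 and CSF1R were at an unadjusted p under 0.05.

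Exons gave no call either. Of 114698 tested exons 0 (0%) had an adjusted p under 0.05 and 5164 (4.5%) an unadjusted p under 0.05, 2.22% higher and 2.28% lower in HD (limma). Relative use is the log2 value of an exon less that of the summed other exons of its gene. It was tested for 113047 exons in 10868 genes. There were 0 adjusted calls (0%) and 4546 (4.02%) unadjusted, 2.04% higher and 1.98% lower. The diffSplice test of the same exons, which assumes 1 variance per gene rather than per exon, called 117. The smallest p was that of an exon of SESTD1 at 66111541 to 66111638 on chromosome 2b, with 14.6 to 41.7 normalized reads in HD (median 23.6) and 7.15 to 17.7 in BD (median 10.7). Its relative use ran from -5.35 to -4.25 in HD and from -6.30 to -5.48 in BD. The difference was 1.09 ± 0.15 (unadjusted p = 5.89e-06, adjusted p = 0.666, limma). The exon was chosen for its small p, so the gap between these ranges describes the choice. An exon of SPATS2 (chromosome 12, 47714765 to 47714823) differed by 1.32 ± 0.20 and one of IPMK (chromosome 10, 74455061 to 74455157) by -1.23 ± 0.20. All 3 hold few reads. Positions are as the exon names give them; the build is not given in the sources used here. The names 2a and 2b do not occur in the RefSeq table of the macaque genome used for symbols, so they are identifiers only.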

How the data were processed

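RNA of area 32 was sequenced with a stranded, ribosomal RNA depleted protocol, 1 library per animal. CASAVA, FastQC, STAR 2.3.0e and edgeR are named in the submitters' processing notes; of the genome build, the annotation and the counting program, none is given in the sources used here. The authors deposited normalized signal, upper-quartile scaled, for 15521 genes and 156345 exons. Dividing by each library's step returned whole reads (100% of values within 0.01 of a read), and 1 read was worth 0.656 to 2.07 normalized reads.

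Genes reaching 10 normalized reads (exons, 5) in 6 or more of the 14 libraries were fitted as log2(value + 1) with limma 3.58.1 (R 4.3.3; HD and cohort, eBayes with trend) and Benjamini-Hochberg adjustment at 0.05. A fold on this scale understates low genes. Scripts were tested on simulated data. edgeR 4.0.16 and DESeq2 1.42.0 were alternatives. Named are the 10 genes with the smallest p in each direction, 20 chosen genes, the members of each list with the smallest p, and 3 exons; other genes, and list members beyond these, are named after their values were seen. The comparison, members and lists were chosen with earlier results of these data known. Symbols matched reference tables for 14051 genes. The labels mention 31 animals, 1 removed by the authors as an outlier. Depth limits low genes most. The blood cell list had no tested member. Some genes within these rules are not reported by name here, though the counts over all genes and over lists cover them.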

Additional observations from a re-analysis of the deposited data

Results flagged for a closer look

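In 196 sets of 7 values, 11 had an animal far from the other 6 by Dixon's ratio (critical value 0.568). The sets were read depth, the genes named by rule and the lists, each in HD and in BD. By chance about 1 in 20 such sets is flagged.

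HD replicate 5 was the highest HD animal in 5 of these: the fibroblast list (8.65, next 7.52), the pericyte list (7.32, next 6.65), the basement membrane list (8.82, next 8.33), COL3A1 (10.02, next 8.22) and TAGLN (8.66, next 7.64). BD replicate 5 was the highest BD animal for TAGLN, at 9.47 against 8.40.

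HD replicate 4 was lowest for HSPB1 (5.77, next 6.17) and highest for NDUFB3 (4.71, next 4.28). HD replicate 1 was lowest for BDNF (7.36, next 7.88). BD replicate 6 was lowest for CHGB, a granin gene of secretory vesicles (11.07, next 11.20), and BD replicate 7 highest for SYT1 (14.26, next 14.10).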

How the results depend on the processing

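No paired analysis was possible because the labels give no replicate numbers; the numbers here follow the order of the samples. The causes of the shifts below were not tested. The number of genes at an adjusted p under 0.05, 0 in the reported fit, was 7 without cohort 5 and 0 to 1 with each library left out. The number at an unadjusted p under 0.05, 731, was 1428 without the cohort term, 1100 with all 30 libraries in the fit, 2473 with array weights, 416 without cohort 4, 453 without cohort 5, 406 with the fibroblast list mean as a covariate and 374 without the 5 libraries under 6 M reads. With each library left out it ran from 406 to 1490: 1490 without BD replicate 1, 1242 without BD replicate 7, 1180 without HD replicate 6, 466 without HD replicate 3, 463 without BD replicate 4, 434 without BD replicate 6 and 406 without HD replicate 7.

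The fibroblast list median of -0.57 became 0.021 with the list's own mean as a covariate, which removes it by construction, and -0.024 without the 5 libraries numbered 1 to 8; both alternatives, and the one without libraries under 6 M reads, were chosen after seeing the data. Its 13 members with small p became 8 with DESeq2, 6 without the cohort term, 0 with the covariate, 7 without libraries under 6 M reads, 0 without numbers 1 to 8, and 6 to 19 with each library left out (6 without HD replicate 3 or BD replicate 4). The 8 members of the pericyte list became 5 with a minimum of 100 normalized reads, 3 with a term for library numbers 1 to 8, 0 with the covariate, 4 without libraries under 6 M reads, 0 without numbers 1 to 8, and 1 to 9 with each library left out: 1 without BD replicate 1, 3 without BD replicate 4 or HD replicate 3, 4 without HD replicate 7, and 5 without BD replicate 6 or HD replicates 1, 2 or 6. Exons at an unadjusted p under 0.05 were 9512 without the cohort term and 3847 to 8101 with each library left out, exons at an adjusted p 0 to 11, and relative exon calls 117 with diffSplice and 0 to 1 with each library left out.

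Of the 71 genes named by rule (smallest p, chosen genes and first list members) 54 kept their sign under all 31 alternatives. The other 17 were mostly near 0. Further list members, and genes named only after their values were seen, are not in this count. With the fibroblast covariate the sign turned for COL1A2 (0.11), COL3A1 (0.040), CRH (0.010), GAD1 (0.014), GFAP (0.14), PDGFRB (0.030), SST (0.048) and TAGLN (0.0043). Without numbers 1 to 8 it turned for COL3A1 (0.067), CRH (0.15), GAD1 (0.12), GFAP (0.26), NPY (0.059), OAS3 (0.042), SLC1A2 (0.035) and SST (0.13). Without the cohort term it turned for ALDH2 (-0.042), CRH (0.070), FKBP5 (-0.087), GAD1 (0.057), PDYN (-0.089) and SLC1A2 (0.012). CRH was 0.00013 with edgeR, 0.0032 with DESeq2 and 0.047 with array weights. FKBP5 was -0.0031 with a term for depth, -0.0095 with all 30 libraries and -0.25 without cohort 4. NR3C1 was -0.024 without libraries under 6 M reads. GAD1 was 0.0050 with the library number term, 0.0053 with all 30 libraries and 0.085 without cohort 5, where KCNMA1 was 0.018. Without cohort 4 MBP was 0.0032 and PDYN -0.032. With each library left out, ranges that include 0 were ALDH2 -0.022 to 0.099, CRH -0.091 to 0.058, FKBP5 -0.25 to 0.30, GAD1 -0.12 to 0.085, GFAP -0.19 to 0.036, KCNMA1 -0.068 to 0.018, MBP -0.48 to 0.0032, NR3C1 -0.0086 to 0.033, PDYN -0.032 to 0.18 and SLC1A2 -0.027 to 0.012.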

Other observations

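Low and very heavy drinkers give a reference for the genes above, as medians without a cohort term and with no test made here. For TLN1 the LD and VHD medians were 10.88 and 10.78, for ITGB4 9.71 and 9.61, and for CD74 8.55 and 8.44, all between the HD and BD medians. For TRIP13 they were 4.89 and 4.93, for BBS4 8.34 and 8.36 and for UBE3A 11.03 and 11.01, again between both. DDX4 was at 4.64 in LD and 3.57 in VHD, so LD lay near HD and VHD near BD. HSPB1, the small heat shock protein, was at 6.24 in LD and 6.38 in VHD, near the HD median of 6.20, with BD at 6.98.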
